A study of Mus musculus with 32 samples.

Results

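The SLC25 genes encode the mitochondrial carrier family. Protein-coding genes whose symbol is Slc25a followed by a number, with at least 100 counts over all libraries, were taken as members, and 41 of 47 genes with such a symbol met this minimum, in a table of 56953 genes. The genes under it were Slc25a2, Slc25a21, Slc25a31, Slc25a41, Slc25a48 and Slc25a54. Nearest to the minimum were Slc25a2, with 89 counts, below it and Slc25a34, with 108 counts, above it. Messenger RNA came from mouse macrophages differentiated out of bone marrow (femur and tibia, mice aged 8 to 12 weeks, C57BL/6J background), with L929 supernatant supplying M-CSF. The genotypes were wild type (WT) and Acod1 knockout (KO), Acod1 (Irg1) being the gene of the enzyme that makes itaconate from a TCA cycle intermediate. Each genotype was left untreated (control) or received 100 nM dexamethasone, a synthetic glucocorticoid, LPS at 100 ng with no volume given, or both for 24 h, with 4 libraries in each of 8 groups and 32 in all. Every group shared the same culture medium, the labels name C57BL/6J, Irg1+/+ and Irg1-/- mice as marrow donors without tying WT libraries to either of the first 2, and the labels do not give the part of Acod1 that was deleted.

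SLC25 proteins sit mostly in the inner mitochondrial membrane and exchange or import nucleotides, phosphate, carboxylates, amino acids, cofactors, iron and glutathione between cytosol and matrix. The ADP/ATP and phosphate carriers serve ATP synthase, and the citrate, dicarboxylate and aspartate/glutamate carriers link the TCA cycle to lipid synthesis and to the malate-aspartate shuttle. In macrophages, LPS is known for shifting metabolism toward glycolysis and glucocorticoids for limiting the inflammatory response.

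Library totals ran from 17559079 to 25049200 counts, and 14427 genes, with 40 of the 41 members, passed the filter on low counts. Slc25a34 did not pass. Levels are in CPM, each count divided by its library's TMM-scaled size and set to a common total. WT levels of Acod1 were 9.89 ± 1.26 CPM untreated, 6483 ± 249 under LPS and 2738 ± 34.8 under both agents, and those of KO 5.82 ± 0.747, 4995 ± 133 and 3933 ± 195 CPM (SD, n = 4). As the deleted part is not known, these counts over the gene do not check the label. The summed level of 8 macrophage markers was 15200 to 30300 CPM across libraries, while 7 erythroid markers summed to at most 0.852 CPM, 6 neutrophil markers to at most 13.8 CPM and 4 dendritic cell markers to at most 17.2 CPM. All WT libraries came from sequencing lane 3 and all KO libraries with LPS from lane 2, so KO against WT with LPS, and LPS effects within KO, cannot be told apart from the lane. Dexamethasone plus LPS against LPS lies within 1 lane in each genotype. KO control replicate 1 is marked merged, with no lane given, and was left out of every fit with a lane term. Of the KO libraries without LPS only dexamethasone replicate 4 came from lane 2, and the lane term rests on it. Whether replicates were separate mice is not in the labels, so each p-value refers to the spread of libraries, part of it possibly technical.

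Promoters of 4 members, Slc25a10, Slc25a13, Slc25a5 and Slc25a39, are shown because they had the largest rises among members above 5 CPM when dexamethasone was added to LPS in WT, a choice made from these values. Each is the 250 bases before the RefSeq start on GRCm38.p6, read 5′ to 3′ on the gene's strand, with capitals marking the motif matches found. Slc25a10 lies at chr11:120491587-120491836 (+), Slc25a13 at chr6:6217174-6217423 (-), Slc25a5 at chrX:36795347-36795596 (+) and Slc25a39 at chr11:102407518-102407767 (-).
Slc25a10: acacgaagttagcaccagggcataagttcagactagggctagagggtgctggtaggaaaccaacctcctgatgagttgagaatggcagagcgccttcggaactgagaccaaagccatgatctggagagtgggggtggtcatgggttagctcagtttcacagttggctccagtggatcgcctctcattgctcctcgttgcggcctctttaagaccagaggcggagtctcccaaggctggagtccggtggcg
Slc25a13: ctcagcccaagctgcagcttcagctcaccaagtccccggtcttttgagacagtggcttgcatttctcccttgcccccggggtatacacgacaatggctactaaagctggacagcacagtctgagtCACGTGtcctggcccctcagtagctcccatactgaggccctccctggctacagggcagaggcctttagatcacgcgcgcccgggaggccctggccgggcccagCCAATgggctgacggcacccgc
Slc25a5: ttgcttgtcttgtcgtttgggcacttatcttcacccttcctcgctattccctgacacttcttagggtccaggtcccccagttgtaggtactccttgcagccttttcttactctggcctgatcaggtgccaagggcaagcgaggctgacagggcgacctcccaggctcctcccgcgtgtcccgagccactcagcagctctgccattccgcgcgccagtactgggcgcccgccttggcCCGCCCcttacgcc
Slc25a39: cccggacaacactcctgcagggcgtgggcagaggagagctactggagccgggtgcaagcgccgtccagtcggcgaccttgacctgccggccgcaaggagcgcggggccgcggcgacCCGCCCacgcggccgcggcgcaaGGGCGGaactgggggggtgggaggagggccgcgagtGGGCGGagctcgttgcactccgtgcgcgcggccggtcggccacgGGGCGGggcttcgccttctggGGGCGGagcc
The motifs were searched on both strands in the upstream windows of 32 members and in 32851 windows of all genes. A member was counted if any of its windows matched, and 6 members had several starts. The shares of all windows are per window, so member counts and these shares are not like measures. GC boxes (GGGCGG) were in the windows of 23 members and in 32.7% of all windows, and NF-Y motifs (CCAAT) in 17 members and 33.8% of windows. The E-box CACGTG was in 6 members and 6.02% of windows, and the ETS motif CCGGAAG in 5 members and 6.91%. AGAACA, only part of a glucocorticoid receptor site, was in 3 members and 16.1%. AAGGTCA, only part of an ERR site, was in 1 member and 4.08% of windows, the NRF1 motif in 1 member and 3.74%, and the NF-kappaB motif in no member and 0.356%. Slc25a13 held an E-box 125 bases and an NF-Y motif 22 bases before its start, Slc25a5 a GC box 14 bases before, and Slc25a39 had 5 GC boxes. A match is a match of letters in this window and nothing more.

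Per kilobase of exon, Slc25a5 (ANT2, the ADP/ATP exchanger) had the highest mean level over the 32 libraries, 170.0 CPM per kb, or 24% of the summed level of all members. Slc25a4 (ANT1, the same exchange) followed at 62.6 CPM per kb, then Slc25a11 (the oxoglutarate/malate exchanger) at 56.5, Slc25a3 (the phosphate carrier) at 55.8 and Slc25a1 (the citrate carrier) at 48.2 CPM per kb. The lowest were Slc25a42, Slc25a18, Slc25a29, Slc25a27, Slc25a53, Slc25a47 and Slc25a34, from 0.559 down to 0.0638 CPM per kb. Summed over the class, adenine nucleotide and phosphate carriers were at 285 ± 8.20 CPM per kb in WT control and 540.4 ± 9.29 with both agents (SD, n = 4), and carboxylate carriers at 115 ± 4.39 and 202 ± 4.96. In KO the same sums with both agents were 369 ± 10.3 and 168 ± 3.10 CPM per kb. Slc25a5 has near-identical copies that could share its reads, and the counts carry no strand, so its level and those of genes with an antisense partner are uncertain.

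**Figure D1:**
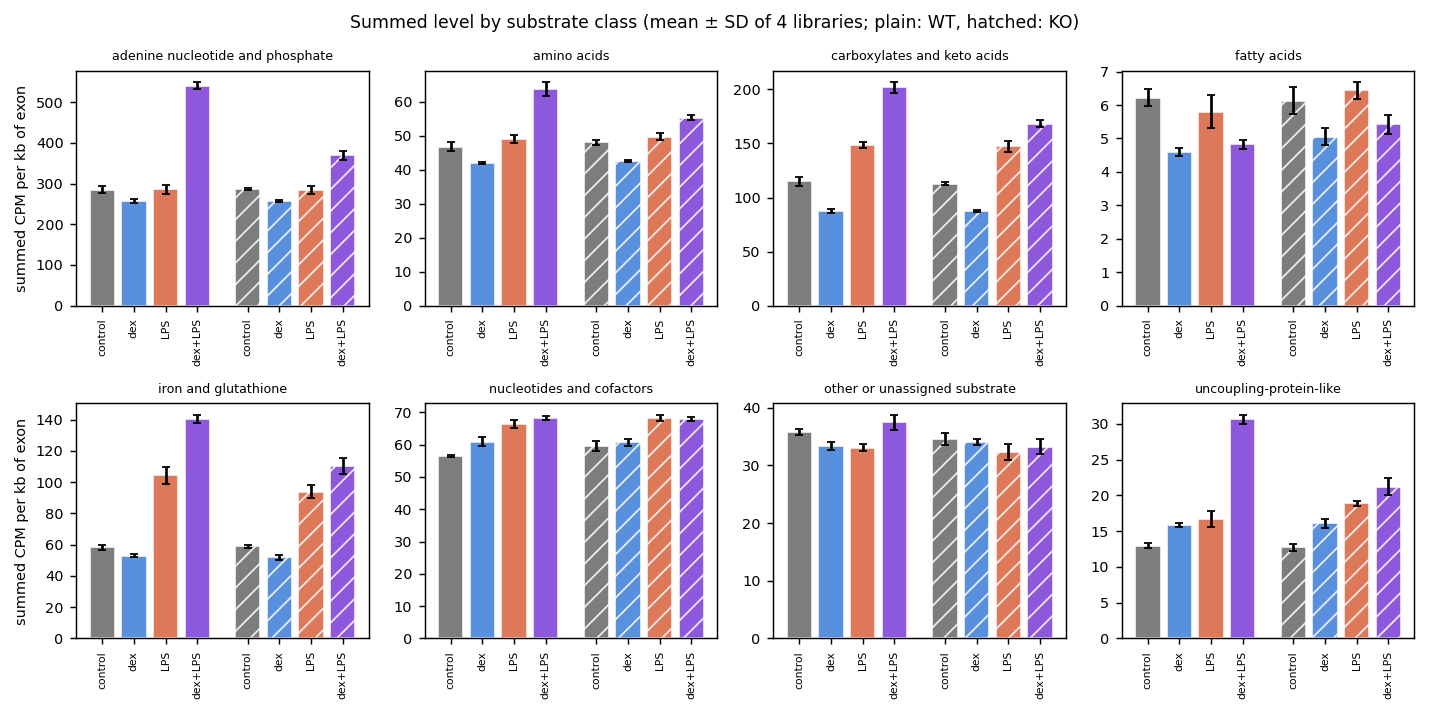
Summed CPM per kb of exon of the members of each of 8 substrate classes (mean ± SD of 4 libraries), by treatment and genotype. In WT with both agents the adenine nucleotide and phosphate sum stands at 540.4 ± 9.29 CPM per kb against 286 ± 11.3 with LPS alone. The largest part of this class is Slc25a5, at a mean of 170 CPM per kb over the 32 libraries, whose level is uncertain.

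LPS raised Slc25a37, Slc25a33, Slc25a35, Slc25a43, Slc25a22, Slc25a12 and Slc25a1 in WT and lowered Slc25a13, Slc25a23, Slc25a24 and Slc25a45. Of 40 members tested, 17 were called higher and 11 lower in WT at an adjusted p under 0.05 (edgeR quasi-likelihood test, Benjamini-Hochberg adjustment, as for every test below), where 37.4% and 38.3% of all genes were called. KO had 16 higher and 14 lower, against 36.8% and 39.3% of genes, and 20 called with a lane term and without KO control replicate 1. The members' median log2 fold change was 0.0936 in WT, against -0.0196 over all genes, and 0.0626 in KO. Without normalization the WT split was 13 higher and 21 lower, and the KO split 14 and 23, as the median of all genes then stands at -0.278 and -0.272. The summed level of 8 macrophage markers was also lower with LPS. It ran from 24200 to 26300 CPM in WT control and from 15200 to 17400 CPM with LPS. In KO it ran from 20700 to 23000 and from 17100 to 18300 CPM. Its part in the carrier changes was not tested. In bulk libraries a change in the share of cells and a change in RNA per cell cannot be told apart.

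Slc25a37 (mitoferrin-1), which imports iron into mitochondria, was at 59.8, 56.1, 59.7 and 51.6 CPM in WT control and 352, 406, 347 and 415 CPM with LPS. All 4 LPS libraries lay above all control libraries, a log2 fold change of 2.74 ± 0.05 (SE, adjusted p = 7.8e-41), and dexamethasone added to LPS left it at 377, 363, 378 and 402 CPM, within the LPS range. Its dexamethasone effect under LPS was 0.00 ± 0.05 (SE, adjusted p = 9.9e-01). Dexamethasone alone gave 51.5, 47.97, 51.2 and 48.5 CPM in WT. Its KO levels were 57.6, 60.1, 59.6 and 58.4 CPM in control, 52.4, 49.95, 45.1 and 45.2 with dexamethasone, 317, 345, 316 and 332 with LPS and 332, 356, 309 and 352 with both, with those under LPS all below the WT ones, and its LPS effect differed between genotypes by -0.27 ± 0.07 (SE, adjusted p = 2.8e-02). This was the only member called among the differences of the LPS effect between genotypes, where 2.07% of genes were called higher and 1.64% lower. The call was lost, with 0 members, without WT control replicate 2 or 4, WT LPS replicate 2, KO control replicate 2 or 3, or KO LPS replicate 1 or 3. Slc25a28 (mitoferrin-2), the other mitochondrial iron importer, had -0.12 on the log2 scale in WT with LPS, which did not pass the test. Slc25a28 was called lower with LPS in KO, where LPS and lane cannot be told apart. In WT it was called lower when dexamethasone was added to LPS.

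Slc25a13 (citrin), which exchanges aspartate and glutamate in the malate-aspartate shuttle, was at 41.8, 45.2, 39.9 and 42.9 CPM in WT control and 9.54, 8.46, 7.54 and 9.86 CPM with LPS, groups that did not overlap. The change was -2.26 ± 0.08 (SE, adjusted p = 8.5e-31). Slc25a12 (aralar), with the same exchange, was at 47.7, 45.5, 46.3 and 47.2 CPM in control and 92.9, 96.9, 80.8 and 93.7 CPM with LPS, so the pair of exchangers moved in opposite directions. The log2 fold change of Slc25a12 was 0.96 ± 0.05 (SE, adjusted p = 1.4e-22).

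Slc25a23 (SCaMC-3), a calcium-regulated ATP-Mg/phosphate exchanger, fell from 31.9 ± 3.26 to 9.35 ± 0.644 CPM (SD, n = 4) in WT with LPS, a log2 fold change of -1.77 ± 0.08 (SE, adjusted p = 6.7e-25), while Slc25a25 (SCaMC-2), with the same kind of exchange, rose from 12.7 ± 2.40 to 20.5 ± 1.27 CPM. Slc25a22, a glutamate carrier, rose from 37.2 ± 3.38 to 74.8 ± 3.45 CPM, and Slc25a1, which exports citrate, from 84.1 ± 4.88 to 149.5 ± 6.09 CPM. Slc25a33, a pyrimidine nucleotide carrier, rose from 4.61 ± 0.903 to 14.8 ± 1.63 CPM. Slc25a35 and Slc25a43, of unassigned substrate, rose by 1.53 and 1.20 on the log2 scale. The rises of Slc25a10 (0.24) and Slc25a5 (0.09) depended on the scaling: without normalization Slc25a10 was not called, at -0.0196 (adjusted p = 0.70), and Slc25a5 was called lower, at -0.17. The Slc25a5 call was also lost without the filter on low counts, at adjusted p under 0.01, and without WT LPS replicate 3 or 4.

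Dexamethasone alone lowered all 3 carboxylate carriers and the ADP/ATP exchangers Slc25a4 and Slc25a5, and raised several cofactor carriers. In WT 12 members were called higher and 14 lower, against 21.2% and 28.2% of genes, and in KO 9 and 14, against 20.9% and 27.6%. The summed level of 4 dendritic cell markers moved with dexamethasone alone, from 0.903 to 1.4 CPM in WT control libraries to 16.1 to 17.2 CPM, and its part in the carrier changes was not tested. In WT Slc25a1 went from 84.1 ± 4.88 to 58.7 ± 2.47 CPM, Slc25a10 from 62.6 ± 1.91 to 49.02 ± 1.85 CPM and Slc25a11 from 123 ± 4.10 to 97.8 ± 1.69 CPM (SD, n = 4). Slc25a5 had a log2 fold change of -0.29 ± 0.04 (SE, adjusted p = 2.5e-09). Of 9 cofactor and nucleotide carriers, 6 were higher and 1 lower in WT, among them Slc25a16 and Slc25a42, both coenzyme A carriers, at 0.32 and 0.61 on the log2 scale. Slc25a15, the ornithine/citrulline exchanger, was at 9.18, 8.81, 10.2 and 12.3 CPM in WT control and 16.5, 18.03, 18.9 and 18.9 CPM with dexamethasone, with no overlap between the groups, and its log2 fold change was 0.84 ± 0.10 (SE, adjusted p = 1.6e-10). Slc25a20, the acylcarnitine carrier, fell from 30.1 ± 1.26 to 22.3 ± 0.524 CPM in WT, at -0.44 ± 0.06 (SE, adjusted p = 1.5e-08).

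**Figure D2:**
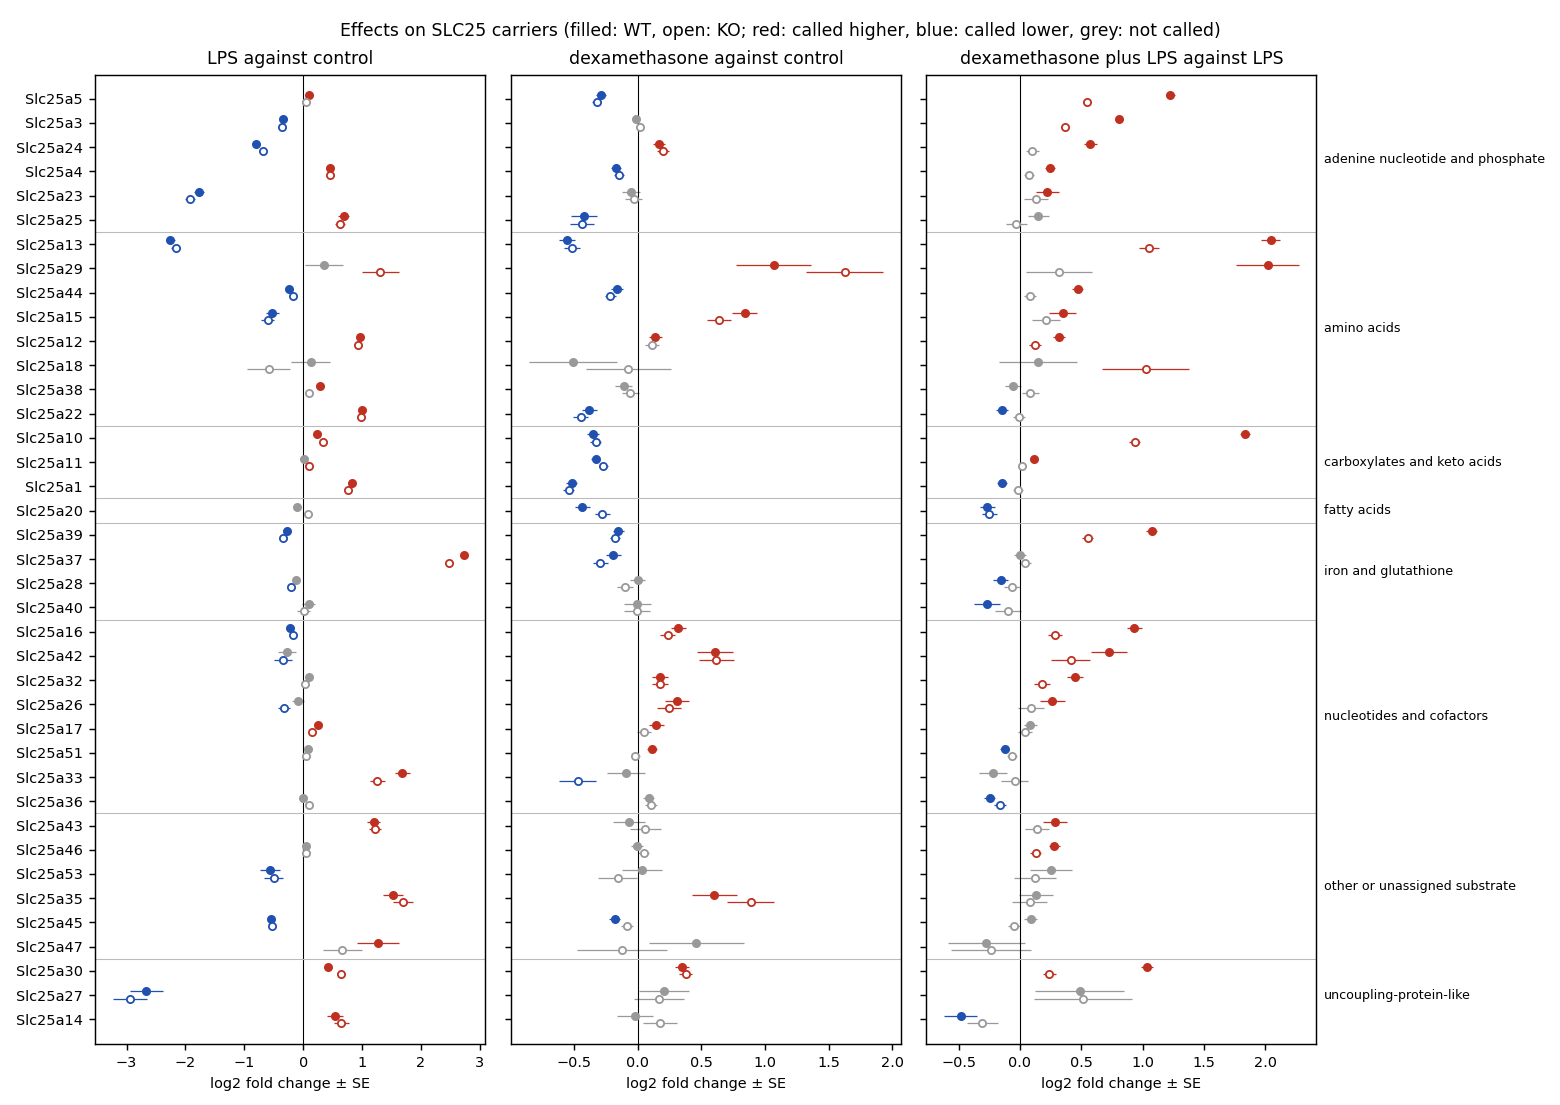
Log2 fold change ± SE of SLC25 members for 3 comparisons, by substrate class, with filled points for WT and open points for KO. With dexamethasone added to LPS, 20 members are called higher in WT and 12 in KO.

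When dexamethasone was added to LPS in WT, Slc25a13, Slc25a10, Slc25a5, Slc25a39, Slc25a30, Slc25a16 and Slc25a3 rose most among the members above 5 CPM. Members called higher numbered 20 and lower 9, against 34.6% and 34.5% of genes, with a median of 0.235 on the log2 scale for members and 0.00708 for all genes. This comparison shares its LPS libraries with LPS against control. The members' split was 23 higher and 4 lower without normalization. By class, 5 of 6 adenine nucleotide and phosphate carriers, 5 of 8 amino acid carriers, 4 of 9 nucleotide and cofactor carriers, 2 of 3 carboxylate carriers and 1 of 4 iron and glutathione carriers were higher. Called lower were 0, 1, 3, 1 and 2 of these classes in turn, and the fatty acid carrier Slc25a20. Of 3 uncoupling-protein-like members 1 was higher and 1 lower. Of 6 tested members with other or unassigned substrate 2 were higher and 0 lower. The summed level of all 8 macrophage markers moved with this comparison, from 15200 to 17400 CPM with LPS to 29300 to 30300 CPM with both agents in WT, and that of 6 neutrophil markers from 3.50 to 5.31 CPM to 11.2 to 13.8 CPM. Their part in the carrier rises was not tested. Against dexamethasone alone, dexamethasone plus LPS gave 25 members higher and 9 lower in WT, against 35.5% and 37.8% of genes, and 19 and 10 in KO, against 38.5% and 37.4%. With library totals alone as the scale, 22 were higher against 12 lower in WT, and 15 against 19 in KO.

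Slc25a10, the dicarboxylate carrier that exchanges malate or succinate for phosphate, had WT levels of 60.7, 65.3, 62.1 and 62.3 CPM in control, 50.002, 49.96, 46.2 and 49.9 with dexamethasone, 73.2, 77.96, 70.7 and 73.9 with LPS and 276, 269, 257 and 254 with both. Every library with both agents lay above all other WT libraries. The log2 fold change against LPS was 1.84 ± 0.04 (SE, adjusted p = 1.2e-37). KO levels were 64.9, 62.6, 64.5 and 61.4 CPM in control, 50.6, 49.9, 51.1 and 49.9 with dexamethasone, 79.3, 83.7, 75.001 and 83.96 with LPS and 160.3, 143, 148 and 164 with both. KO libraries with both agents lay above all other KO libraries and below every WT library with both, and the difference between genotypes of the dexamethasone effect under LPS was -0.90 ± 0.06 (SE, adjusted p = 2.8e-18).

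Slc25a13 returned from 8.85 CPM with LPS to 34.3, 37.8, 38.8 and 35.5 CPM with both agents in WT, below all control libraries and above all LPS libraries. This was a log2 fold change of 2.05 ± 0.08 (SE, adjusted p = 2.0e-28). Dexamethasone alone gave 28.6, 28.5, 27.02 and 31.1 CPM in WT. KO levels were 40.2, 42.9, 40.3 and 46.1 CPM in control, 29.5, 28.7, 30.7 and 29.8 with dexamethasone, 9.43, 9.77, 8.34 and 10.4 with LPS and 21.5, 17.5, 18.3 and 21.2 with both, with no overlap between LPS and both agents, and the genotype difference of the effect was -0.995 ± 0.12 (SE, adjusted p = 4.0e-10). Slc25a12 was at 56.6, 48.8, 48.99 and 51.6 CPM with dexamethasone and 111, 116, 116 and 111 CPM with both agents in WT, the latter above its LPS libraries, at 0.32 ± 0.05 (SE, adjusted p = 8.0e-08). Its KO levels were 50.1, 49.9, 45.1 and 48.6 CPM in control, 48.001, 55.7, 50.9 and 54.4 with dexamethasone, 91.9, 91.1, 90.9 and 96.97 with LPS and 108, 98.4, 96.3 and 101 with both.

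WT levels of Slc25a5 were 224, 228, 225 and 235 CPM in control, 182, 187, 185 and 194 with dexamethasone, 232, 233, 255 and 254 with LPS and 584, 565, 575 and 556 with both. The 4 libraries with both agents stood apart from all others of that genotype. The log2 fold change against LPS was 1.23 ± 0.04 (SE, adjusted p = 3.9e-33), and KO levels were 232, 235, 235 and 226 CPM in control, 189.6, 180.0, 189 and 184 with dexamethasone, 237, 239, 232 and 254 with LPS and 363, 329, 349 and 365 with both. With both agents the genotypes did not overlap. The genotype difference was -0.68 ± 0.05 (SE, adjusted p = 2.4e-16). Slc25a3, which imports the phosphate that ATP synthase uses, was at 247 ± 3.47 CPM with LPS and 433 ± 11.2 with both in WT, and 313 ± 9.96 with both in KO, with a genotype difference of -0.44 ± 0.04 (SE, adjusted p = 2.5e-12). Control libraries of Slc25a3 ran from 307 to 319 CPM in WT and from 303 to 316 in KO. KO libraries ran from 232 to 249 CPM with LPS and from 304 to 327 with both, the latter overlapping KO control.

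Slc25a39, a glutathione importer, had these WT levels: 111, 108, 109.9 and 120.2 CPM in control, 102, 97.9, 102 and 102 with dexamethasone, 88.7, 89.5, 101 and 91.2 with LPS and 199.7, 197, 191 and 192 with both. Libraries with both agents lay above all others, at 1.07 ± 0.04 (SE, adjusted p = 7.3e-28) against LPS. KO levels were 116, 111, 114 and 113 CPM in control, 95.2, 104, 103 and 99.4 with dexamethasone, 81.8, 92.8, 89.7 and 94.4 with LPS and 132, 128, 127 and 139 with both, and the genotype difference was -0.52 ± 0.06 (SE, adjusted p = 2.4e-10). Slc25a40, the other glutathione importer, was lower in WT with both agents than with LPS, at -0.27 ± 0.11 (SE, adjusted p = 2.5e-02). Slc25a30, of the uncoupling-protein-like class, rose from 63.6 ± 7.50 to 130.5 ± 2.49 CPM in WT with both agents, and its genotype difference was -0.80 ± 0.07 (SE, adjusted p = 2.1e-13).

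Slc25a1, the citrate carrier, had WT levels of 79.02, 88.2, 80.9 and 88.4 CPM in control, 58.1, 61.7, 55.7 and 59.1 with dexamethasone, 145, 146, 158 and 150.0 with LPS and 139, 137, 135 and 129.8 with both. Its KO levels were 82.7, 80.2, 78.5 and 81.5 CPM in control, 53.4, 59.01, 53.8 and 55.2 with dexamethasone, 126, 145, 136 and 139.9 with LPS and 139, 135, 131 and 135 with both. In both genotypes the libraries with LPS, alone or with dexamethasone, lay above those without. Slc25a11, the oxoglutarate carrier, had WT levels of 122, 127, 118 and 125 CPM in control, 95.6, 99.7, 97.7 and 98.1 with dexamethasone, 123, 122, 126 and 123 with LPS and 137, 131, 133 and 135 with both. KO levels of Slc25a11 were 116, 124, 119 and 123 CPM in control, 102, 99.9, 99.1 and 99.04 with dexamethasone, 129.6, 126, 126 and 133 with LPS and 129.6, 130.3, 133 and 127 with both. Its dexamethasone libraries were the lowest of each genotype.

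Slc25a22, the glutamate carrier, had WT levels of 38.6, 36.8, 40.8 and 32.8 CPM in control, 28.7, 28.9, 29.7 and 27.4 with dexamethasone, 73.3, 78.1, 76.998 and 70.6 with LPS and 63.5, 68.4, 68.3 and 70.5 with both. Its KO levels were 38.8, 36.2, 38.8 and 36.8 CPM in control, 28.02, 27.3, 28.4 and 26.6 with dexamethasone, 69.001, 75.3, 74.6 and 79.9 with LPS and 72.7, 79.8, 72.9 and 71.6 with both, and LPS libraries did not overlap with control ones in either genotype. Slc25a44, a branched-chain amino acid importer, had WT levels of 52.1, 53.5, 49.6 and 45.6 CPM in control, 43.4, 48.2, 44.2 and 43.9 with dexamethasone, 44.7, 39.9, 43.3 and 41.4 with LPS and 57.6, 57.2, 60.6 and 59.2 with both. KO levels of Slc25a44 were 56.98, 51.95, 54.5 and 51.2 CPM in control, 47.4, 45.5, 47.3 and 44.8 with dexamethasone, 47.3, 47.4, 47.9 and 46.4 with LPS and 49.5, 50.01, 50.5 and 50.5 with both. In WT all libraries with both agents lay above all others. Slc25a15 had WT levels of 7.44, 8.12, 5.62 and 6.99 CPM with LPS and 8.69, 9.83, 9.34 and 7.92 with both. KO levels of Slc25a15 were 10.3, 9.25, 11.7 and 10.4 CPM in control, 15.6, 15.5, 16.6 and 17.2 with dexamethasone, 6.46, 7.71, 6.08 and 7.17 with LPS and 6.98, 8.23, 7.40 and 9.08 with both, highest with dexamethasone alone.

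Slc25a23 had WT levels of 32.04, 27.2, 33.4 and 34.7 CPM in control, 29.6, 30.3, 29.1 and 33.6 with dexamethasone, 9.39, 10.1, 8.53 and 9.36 with LPS and 11.1, 11.1, 10.96 and 10.5 with both. KO levels of Slc25a23 were 29.8, 32.97, 30.4 and 30.2 CPM in control, 28.1, 32.7, 29.1 and 30.6 with dexamethasone, 7.92, 8.86, 8.23 and 7.29 with LPS and 8.36, 8.59, 7.51 and 10.96 with both. Libraries with LPS lay below those without in both genotypes. Slc25a25 had WT levels of 11.2, 10.7, 12.99 and 16.02 CPM in control, 7.91, 8.59, 11.01 and 10.4 with dexamethasone, 21.2, 18.9, 20.1 and 21.8 with LPS and 21.3, 23.4, 22.3 and 24.1 with both. KO levels of Slc25a25 were 14.3, 13.9, 13.9 and 14.2 CPM in control, 8.04, 10.6, 11.1 and 11.6 with dexamethasone, 21.7, 21.5, 22.03 and 21.6 with LPS and 21.98, 20.4, 21.3 and 21.4 with both, again highest in the groups with LPS.

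Slc25a30 had WT levels of 46.7, 46.7, 47.2 and 49.4 CPM in control, 59.4, 61.4, 60.8 and 60.1 with dexamethasone, 66.7, 61.2, 54.5 and 71.98 with LPS and 133, 133, 128 and 129 with both. KO levels of Slc25a30 were 43.1, 48.1, 48.3 and 46.8 CPM in control, 59.5, 57.3, 64.1 and 61.2 with dexamethasone, 72.6, 71.7, 72.7 and 73.1 with LPS and 91.9, 78.9, 82.6 and 89.4 with both, and the libraries with both agents were the highest of each genotype. Slc25a20, the single carrier of the fatty acid class, had WT levels of 31.8, 30.3, 29.6 and 28.9 CPM in control, 22.4, 22.9, 21.7 and 22.1 with dexamethasone, 28.6, 24.6, 29.8 and 29.5 with LPS and 23.05, 24.3, 23.3 and 22.9 with both. KO levels of Slc25a20 were 30.9, 30.3, 26.8 and 30.7 CPM in control, 24.6, 26.1, 23.4 and 23.7 with dexamethasone, 31.4, 32.8, 30.1 and 30.5 with LPS and 26.4, 26.3, 24.6 and 27.8 with both. Control and dexamethasone groups did not overlap in either genotype.

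Slc25a51, the NAD carrier, had WT levels of 92.5, 88.9, 88.6 and 91.2 CPM in control, 101, 97.97, 98.4 and 93.4 with dexamethasone, 98.6, 98.6, 93.6 and 89.7 with LPS and 85.8, 87.6, 86.4 and 89.1 with both. KO levels of Slc25a51 were 94.1, 93.4, 104 and 94.5 CPM in control, 91.3, 96.97, 94.3 and 98.2 with dexamethasone, 100.4, 98.4, 97.9 and 101 with LPS and 97.4, 92.1, 93.3 and 97.7 with both. Its range over all libraries was narrow, from 85.8 to 103.5 CPM. Slc25a33 had WT levels of 5.36, 3.31, 4.98 and 4.81 CPM in control, 5.65, 3.44, 5.004 and 3.44 with dexamethasone, 15.1, 15.2, 16.3 and 12.5 with LPS and 13.6, 14.2, 11.7 and 11.2 with both. KO levels of Slc25a33 were 5.51, 6.15, 5.33 and 5.52 CPM in control, 4.20, 2.85, 4.58 and 4.57 with dexamethasone, 12.8, 13.9, 12.2 and 14.9 with LPS and 13.4, 13.4, 12.2 and 13.3 with both. All libraries with LPS lay above all without it.

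Slc25a45, of unassigned substrate, had WT levels of 61.7, 60.6, 60.3 and 59.1 CPM in control, 55.2, 53.6, 51.7 and 52.6 with dexamethasone, 39.9, 38.6, 44.9 and 41.2 with LPS and 45.8, 45.8, 39.9 and 43.2 with both. KO levels of Slc25a45 were 57.99, 59.99, 55.9 and 56.7 CPM in control, 54.6, 53.1, 56.3 and 53.4 with dexamethasone, 40.3, 39.7, 37.2 and 43.4 with LPS and 40.5, 38.5, 37.3 and 38.8 with both, lower in every library with LPS. Slc25a43 had WT levels of 3.21, 4.31, 4.004 and 3.74 CPM in control, 3.48, 3.96, 3.75 and 3.35 with dexamethasone, 8.32, 8.74, 9.47 and 8.48 with LPS and 11.1, 11.2, 9.88 and 10.5 with both. KO levels of Slc25a43 were 3.76, 3.97, 3.80 and 3.29 CPM in control, 3.48, 3.78, 3.71 and 4.39 with dexamethasone, 9.06, 8.51, 7.92 and 8.97 with LPS and 10.4, 10.6, 7.90 and 8.98 with both, higher in every library with LPS. Slc25a35 had WT levels of 2.11, 1.65, 1.64 and 2.03 CPM in control, 2.62, 2.60, 3.10 and 2.99 with dexamethasone, 5.21, 6.36, 3.95 and 6.003 with LPS and 5.81, 5.54, 6.10 and 6.06 with both. KO levels of Slc25a35 were 1.70, 1.11, 1.69 and 1.33 CPM in control, 2.82, 2.94, 2.31 and 2.76 with dexamethasone, 4.63, 4.48, 4.72 and 5.30 with LPS and 4.38, 5.41, 3.89 and 6.42 with both. This low gene was above its control range in every library with an agent.

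**Figure D3:**
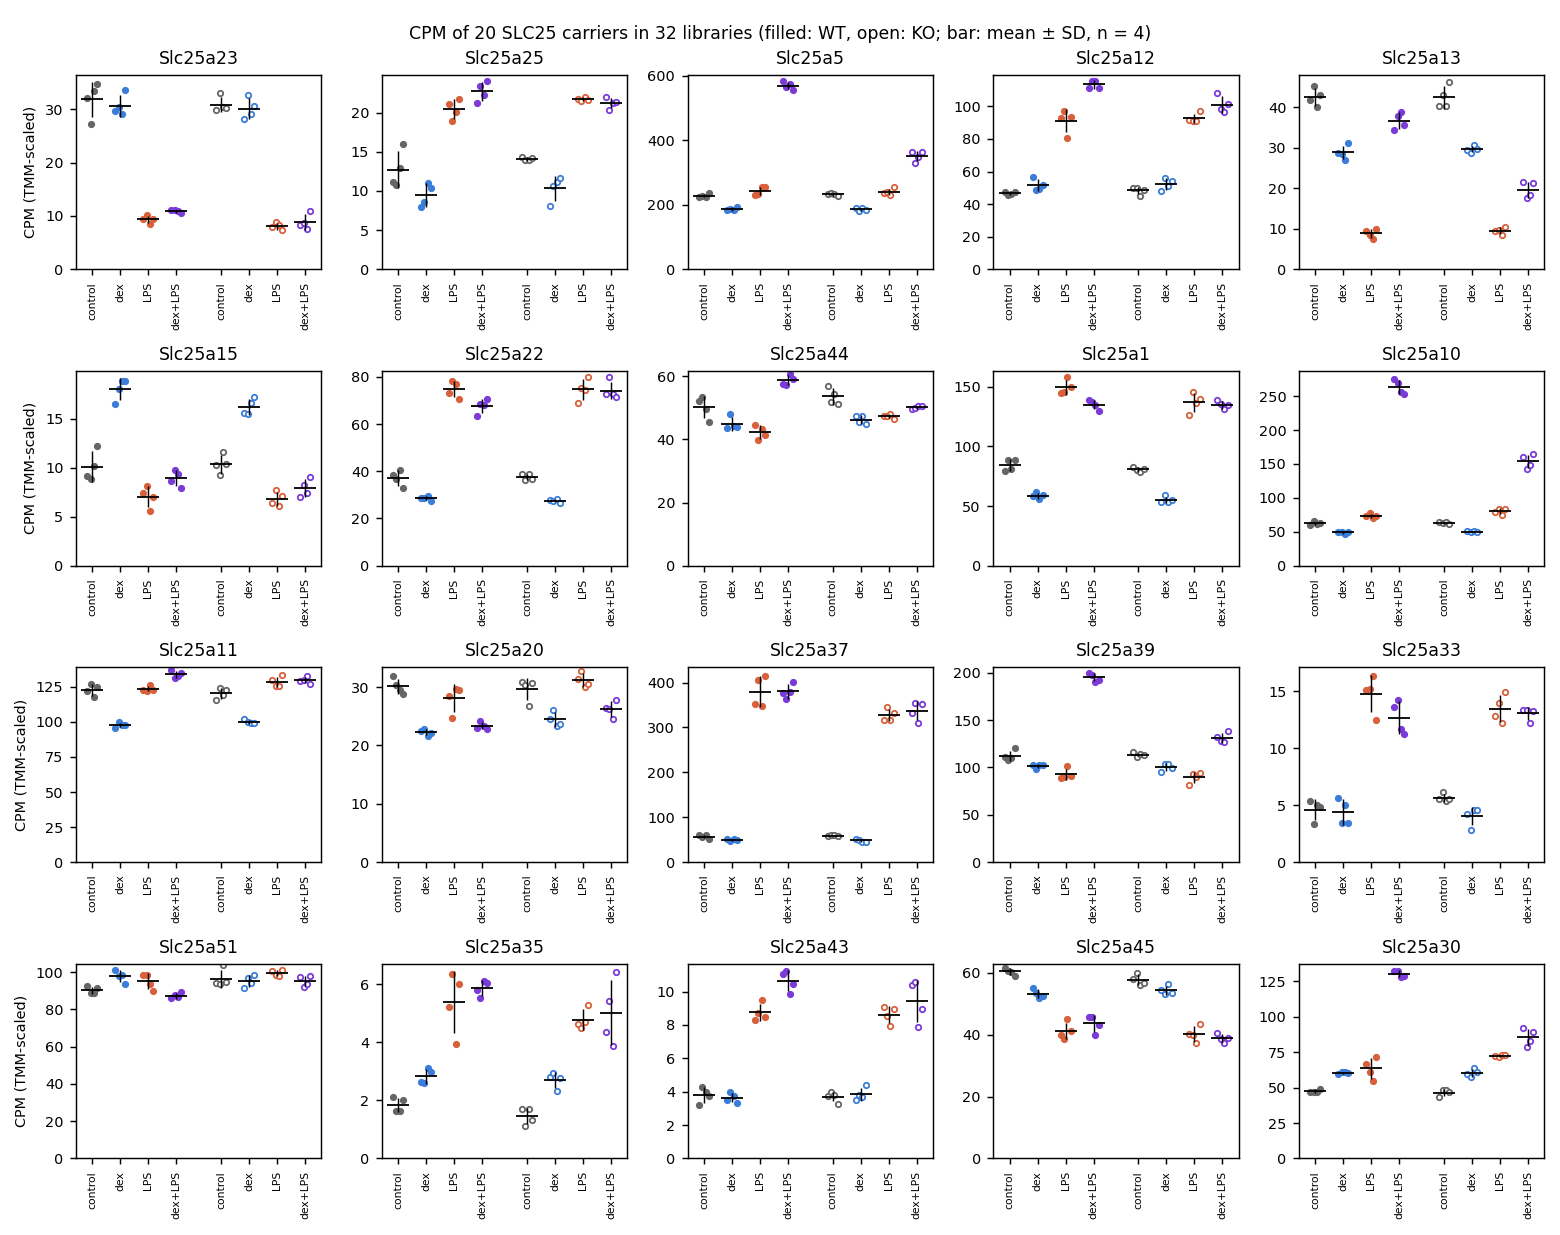
CPM in each of 32 libraries for 20 members, with the mean ± SD of 4 libraries, filled points for WT and open points for KO. Slc25a10 with both agents runs from 254 to 276 CPM in WT and from 143 to 164 in KO.

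Without LPS no member passed the test between genotypes by edgeR: 0 of 40 were called in control, against 0.243% of genes higher and 0.298% lower, and 0 with dexamethasone, against 0.541% and 0.36%. At an unadjusted p under 0.05 there were 2 members in control and 1 with dexamethasone, and DESeq2 called 0 in each. A missed threshold does not show that the levels are alike. With LPS alone 3 members were higher and 2 lower in KO, against 4.66% and 5.51% of genes. Slc25a1 was lower at -0.13 ± 0.04 (SE, adjusted p = 3.5e-02) and Slc25a30 higher at 0.19 ± 0.05 (SE, adjusted p = 1.2e-02). With a lane term in the fit 0 were called. That term rests on KO dexamethasone replicate 4, so it cannot tell genotype from lane. In the fit with no lane term, leaving out WT LPS replicate 3, KO LPS replicate 2 or KO LPS replicate 3 gave a count of 3. Leaving out KO LPS replicate 1 gave 2.

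With both agents 5 members were higher and 19 lower in KO than in WT, against 28.5% and 27.9% of genes, and the median was -0.173 for members and -0.00466 for all genes. With a lane term, which rests on KO dexamethasone replicate 4, 11 were called. KO minus WT, Slc25a13 differed by -0.90 ± 0.07 (SE, adjusted p = 2.6e-16), Slc25a10 by -0.78 ± 0.04 (SE, adjusted p = 7.9e-23), Slc25a5 by -0.70 ± 0.03 (SE, adjusted p = 6.3e-23) and Slc25a39 by -0.57 ± 0.04 (SE, adjusted p = 3.6e-17) on the log2 scale.

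Dexamethasone added to LPS gave 12 higher and 2 lower members in KO, against 20.8% and 17.3% of genes, and 9 and 3 with RLE size factors. All 20 members called higher in WT had the same sign and a smaller fold change in KO, where 11 of them were called, 55.0% of the WT list and 91.7% of the KO list. Their median log2 fold change was 0.522 in WT and 0.197 in KO. All 9 members called lower in WT likewise had the same sign and a smaller fold change in KO, where 2 were called. The medians of these 9 were -0.215 in WT and -0.0912 in KO. Both lists were picked by their WT call, a choice that favours smaller values in KO. The same count over all genes was not made. Of all genes, 69.2% were called for this comparison in WT and 38.1% in KO. The genotype difference of the effect of dexamethasone added to LPS was called lower for 14 members and higher for 0, against 21.5% and 23.9% of genes. A lane term also gave 14, but it cannot test the lane here. Within each genotype both groups lie in the same lane, so the term cancels from this difference. For the dexamethasone effect without LPS, the difference was called for 0 members and 0 genes of 14427 by edgeR, 0% in each direction, while 617 genes and 1 member had an unadjusted p under 0.05 and DESeq2 called 0 members.

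**Figure D4:**
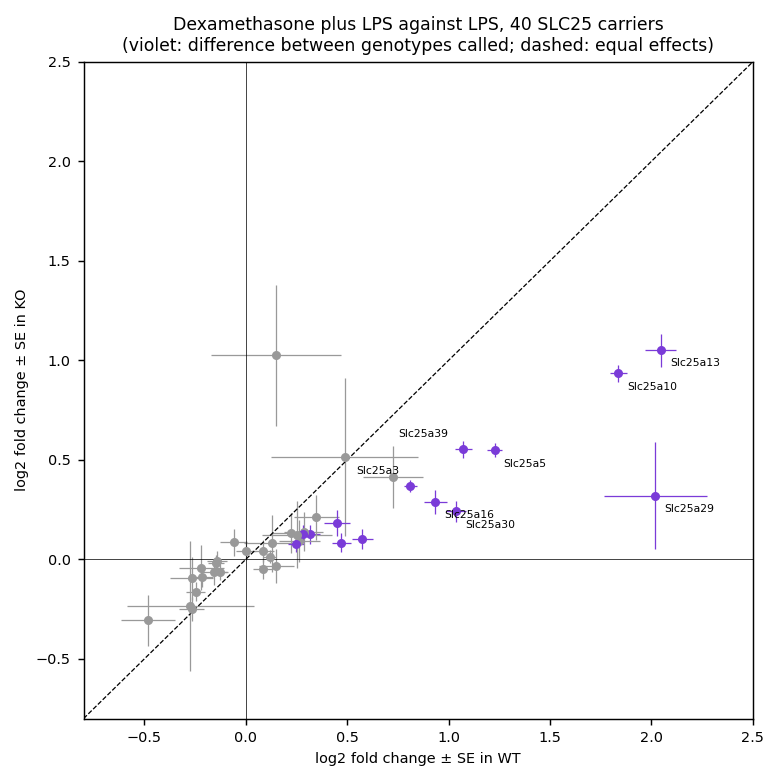
Log2 fold change ± SE of dexamethasone plus LPS against LPS in WT (x axis) and KO (y axis) for 40 members, with violet points where the difference between genotypes was called and a dashed line for equal effects. All 14 violet points lie below the line, with Slc25a13, Slc25a29 and Slc25a10 farthest to the right.

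Other readouts moved with this comparison. In KO the summed macrophage markers were at 17100 to 18300 CPM with LPS and 21100 to 21700 CPM with both agents, and the neutrophil markers at 2.35 to 3.38 and 5.21 to 6.03 CPM, so with both agents each sum was lower in every KO library than in every WT library. Fkbp5, a glucocorticoid receptor target chosen after its values were seen, was at 650.1 ± 12.2 CPM of the library total in WT and 244.2 ± 28 in KO with both agents (SD, n = 4), and at 958.8 ± 12.4 and 914.6 ± 22.3 with dexamethasone alone. Mitochondrially encoded genes held 0.574% of counts in WT and 0.348% in KO with both agents. Among all genes, 22.2% in WT and 3.92% in KO were called with at least a 2-fold change for dexamethasone added to LPS. Their part in the carrier result was not tested.

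The difference between the dexamethasone effect with LPS and without LPS was called for 62.5% of members and 60.4% of all genes in WT, and for 42.5% and 41.8% in KO, shares close to each other. In WT this difference was called higher for 21 and lower for 4 members, against 32% and 28.4% of genes, and in KO for 12 and 5, against 25.7% and 16.2%. All 6 adenine nucleotide and phosphate carriers were higher in WT. Slc25a13 had 2.60 ± 0.10 (SE, adjusted p = 1.6e-27) and Slc25a10 2.19 ± 0.06 (SE, adjusted p = 5.3e-33) in WT, and Slc25a13 1.57 ± 0.10 (SE, adjusted p = 5.8e-18) in KO. Dexamethasone lowered both genes without LPS and raised both with it.

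Genes that work beside the carriers were counted by list, and the shares of all genes to read them against, for dexamethasone added to LPS, are 34.6% higher with 34.5% lower for WT, and 20.8% with 17.3% for KO. All 16 ATP synthase genes tested were higher in WT when dexamethasone was added to LPS, with a median of 0.804, and all 16 in KO, with a median of 0.409, among them Atp5b at 0.72 and the inhibitor Atpif1 at 0.79 in WT. Of 12 enzymes of the carboxylate and shuttle pathways 11 were higher and 1 lower in WT, with Mdh2, a malate dehydrogenase, at 0.50, Glud1, glutamate dehydrogenase, at 1.01 and Idh1, isocitrate dehydrogenase, at 0.55; in KO 10 were higher and 1 lower. The carrier import machinery, 15 genes, had 10 higher and 2 lower for WT, against 7 and 0 for KO. Of 8 genes of acylcarnitine import and oxidation 7 were higher and 1 lower in WT, the lower being Cpt1a at -0.16. Of 10 enzymes around the amino acid carriers 6 were higher and 2 lower, of 15 around the cofactor carriers 6 and 5, and of 14 around iron and glutathione 6 and 3, also for WT. The counts around the cofactor carriers lie near the shares of all genes. Ucp2, a carrier family member under another symbol, fell by 1.96 on the log2 scale with LPS and rose by 1.57 with dexamethasone added to LPS in WT. Among 16 other mitochondrial transporters 9 were higher and 6 lower with dexamethasone added, with Vdac1, an outer membrane channel, at -1.38 after 2.04 with LPS.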

How the data were processed

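The deposited values are raw counts of read pairs per gene, made by the authors with featureCounts 2.0.0 on exons of GENCODE vM32, paired and without regard to strand, per the file headers. The submitters' processing notes name GRCm38, mm10 and STAR, whose version is not given in the sources used here, although vM32 was made for a later build. Symbols came from the reference annotation: 52029 of 56953 identifiers matched, and the rest held 0.846% of counts. In R 4.3.3, edgeR 4.0.16 kept 14427 genes by filterByExpr, scaled by TMM and fitted the 8 group means over 32 libraries (24 residual degrees of freedom). Each of 17 contrasts was tested two-sided by the quasi-likelihood F test over all genes with Benjamini-Hochberg adjustment, called under 0.05, and SE came from the fold change and F. Exon length was used for CPM per kb. Alternatives were DESeq2 1.42.0, scaling by RLE or by library totals, no filter on low counts, adjusted p under 0.01, compared groups alone, a replicate block, a lane term, lane 3 libraries alone and leaving out each library. Tests were tested on simulated data. Values in every library are given for the highest member per class and members with a called 2-fold change at 5 CPM or more in WT; other members described were chosen after their values were seen. Members and lists were chosen with earlier results of these data known. Replicates all differed by more than sampling noise (chi-square per degree of freedom 2.02 to 17.4 over 48 pairs). Promoters came from RefSeq GRCm38.p6. Counts cover every member, and 1 member is not reported here by itself.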

Additional observations from a re-analysis of the deposited data

Results flagged for a closer look

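In 160 groups of 4 libraries tested for a library far from the others, 8 had one, where chance gives about 1 in 20 groups. Slc25a10 was lowest in WT dexamethasone replicate 3 at 46.24 CPM, Slc25a39 lowest at 97.89 and Slc25a44 highest at 48.17 CPM in WT dexamethasone replicate 2, and Slc25a20 lowest at 26.77 and Slc25a51 highest at 103.5 CPM in KO control replicate 3. Slc25a12 was highest at 96.97 CPM in KO LPS replicate 4, Slc25a22 highest at 79.75 CPM in replicate 2 and Slc25a33 lowest at 12.17 CPM in replicate 3 of KO with both agents.

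The LPS effect on Slc25a37 differed between genotypes by -0.27 on the log2 scale, KO minus WT. The effect of dexamethasone added to LPS differed for 14 members, KO minus WT: Slc25a29 by -1.70, Slc25a13 by -0.995, Slc25a10 by -0.90, Slc25a30 by -0.80, Slc25a5 by -0.68, Slc25a16 by -0.65, Slc25a39 by -0.52 and Slc25a24 by -0.47. The others were Slc25a3 at -0.44, Slc25a44 at -0.39, Slc25a32 at -0.27, Slc25a12 at -0.19, Slc25a4 at -0.17 and Slc25a46 at -0.15. Slc25a29 is a low gene, with a mean of 3.01 CPM in WT with both agents.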

How the results depend on the processing

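Alternatives for single members were run for 20 members in 8 comparisons. Among results called in the main fit or in the alternative, signs turned without normalization and in no other alternative run. All were for LPS against control. In WT they were Slc25a10 at -0.0196, Slc25a11 at -0.25, Slc25a5 at -0.17 and Slc25a51 at -0.18 on the log2 scale. In KO they were Slc25a11 at -0.15, Slc25a20 at -0.17, Slc25a5 at -0.19 and Slc25a51 at -0.20. Changes of sign in results called in neither fit were not counted. Counts that moved by over 1.5 times were dexamethasone added to LPS in KO, 9 at adjusted p under 0.01 in place of 14; KO against WT with LPS, 3 without the filter, 1 at adjusted p under 0.01, 1 on the compared groups alone and 0 with a lane term in place of 5; KO against WT with both agents, 11 with a lane term in place of 24; and the genotype difference of the LPS effect, 0 without normalization, at adjusted p under 0.01, on the compared groups alone and with a lane term in place of 1. Leaving out 1 library gave 2 to 4 called in KO against WT with LPS and 0 to 1 in the genotype difference of the LPS effect. The cause was not tested. Replicate numbers did not pair the libraries (same-number correlations from -0.0287 to 0.0596), and a replicate block left 28 members called in LPS against control in WT and 14 in the genotype difference of dexamethasone added to LPS. The lane term rests on 1 KO dexamethasone library, and counts limit members under 1 CPM.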
